A study of Arabidopsis thaliana with 2 samples.

Results

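The genes described here are 6 transcription factors of the basic helix-loop-helix (bHLH) family that act in the iron-deficiency response of Arabidopsis thaliana: ILR3 (AT5G54680), bHLH104 (AT4G14410), bHLH115 (AT1G51070), bHLH121 (AT3G19860, also called URI), PYE (AT3G47640) and bHLH101 (AT5G04150). They were chosen by gene identifier. Each of the 6 has exactly 1 single-gene probe set, a probe set that names no other gene, out of 22746 plant probe sets in all. Probe sets that name several genes were not assigned to a factor. Pericycle cells, which form the outermost layer of the root's vascular cylinder, were released from ecotype Columbia roots by protoplasting and sorted by the fluorescence of the GFP reporter line J2661. Seedlings spent 6 days on standard medium. They then spent 24 h either on medium in which 0.3 mM ferrozine, an iron chelator, took the place of the iron salt (without iron) or on medium that held iron (with iron), and were 7 days old at protoplasting. Both groups carry the same reporter in the same ecotype, and both went through protoplasting and sorting, so neither shows the intact root.

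bHLH proteins bind DNA as pairs, and the iron factors form a layered network. The subgroup IVc proteins ILR3, bHLH104, bHLH115 and bHLH34 activate the genes of other regulators when iron is short, among them PYE and the subgroup Ib factors bHLH38, bHLH39, bHLH100 and bHLH101. bHLH121, of subgroup IVb, works together with the IVc proteins, while PYE, also of subgroup IVb, represses genes that move and store iron and was described from the pericycle response to iron shortage. The Ib proteins pair with FIT to switch on iron uptake at the root surface, and the E3 ligase BTS and its relatives BTSL1 and BTSL2 mark regulators of the network for degradation. Several steps of this network are known to act on the proteins, which an array of transcripts does not measure.

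There was 1 array per condition, labelled replicate 1 in each, so no difference below has a replicate check. "Higher" and "lower" speak of these arrays alone, and no p-value was computed. The deposited intensities are in arbitrary linear units, and each factor is compared only with itself across the arrays, since the brightness of a probe set also depends on its probes. The array without iron had a median of 0.866 and a range of 0.329 to 83.5. The array with iron had a median of 0.852 and a range of 0.484 to 62.8. Over the whole array, dim probe sets read mostly lower and bright ones mostly higher without iron. The 27 Bacillus control probe sets, which detect no plant transcript and sit at the dim end, were all lower on the array without iron (median log2 difference -0.42). The 9 hybridisation controls were all higher, with a median of 0.36. Each factor was therefore also set against the 500 plant probe sets nearest to it in mean log2 intensity, and its difference is given both as deposited and adjusted for brightness, that is, after subtraction of a lowess curve of difference on mean log2 intensity. The robust SD given beside an adjusted value is the spread among those 500 probe sets, not between replicates.

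All 6 factors read higher without iron as deposited, as did 49.9% of all plant probe sets and 89.9% of the 11872 whose higher value reached the expression filter, 0.858 units. ILR3, bHLH121 and PYE were the 3 at least 1.5-fold higher. That size was reached by 12.6% of all plant probe sets and 24.1% of those past the filter. In the authors' deposited table all 3 also had q under 0.05. Both criteria were met by 11.2% of all plant probe sets and 21.5% of those past the filter. None of the 6 was 2-fold higher, against 1.08% of all plant probe sets. The median log2 difference of the 6 was 0.53, beside -0.0023 for all plant probe sets. For the 5 factors past the filter it was 0.59, beside 0.37 for all plant probe sets past the filter. Adjusted for brightness, the median of the 6 was 0.16, beside 0.0023 for all plant probe sets. For the 5 factors past the filter, which leaves out bHLH101, the adjusted median was 0.072. No factor reached 1.5-fold in either direction on this scale (0.567% of all plant probe sets were 1.5-fold higher and 0.774% lower). In the plot of intensities by factor, 5 of the 6 lie above the expression filter on both arrays and bHLH101 lies below it on both.

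**Figure D1:**
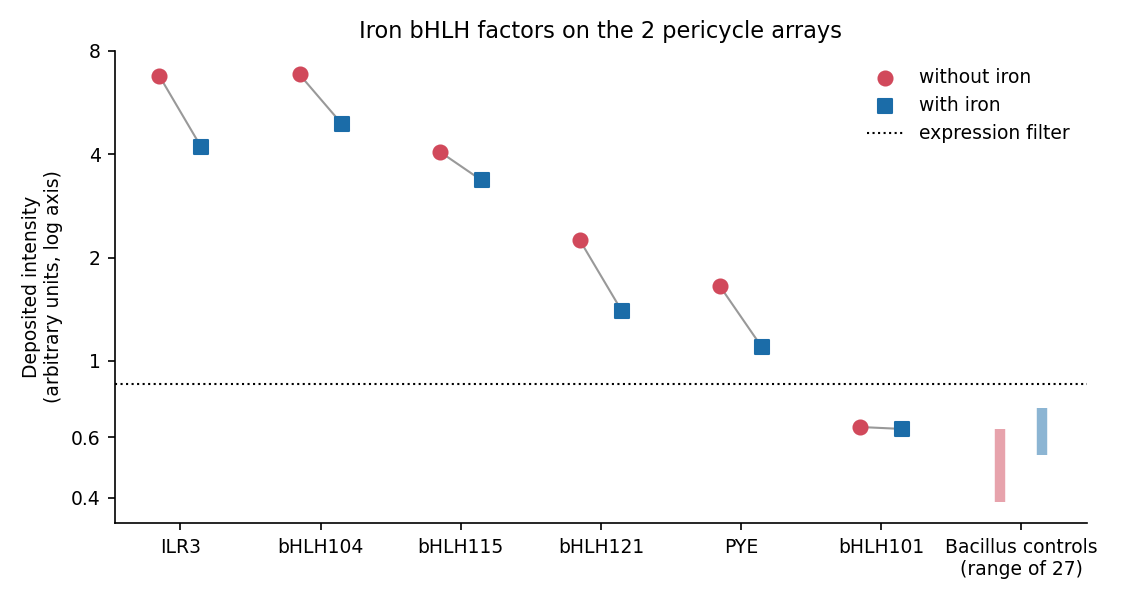
Deposited intensity (arbitrary units, log axis) of each factor on the array without iron (circles) and the array with iron (squares), 1 array each, with the range of the 27 Bacillus control probe sets as bars at the right and the expression filter as a dotted line. ILR3 reads 6.76 without iron and 4.19 with iron, while bHLH101 reads 0.642 and 0.634. Levels of different genes are not comparable.

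Of the IVc activators, ILR3 had the largest difference as deposited. ILR3, named for the resistance of its mutant to a leucine conjugate of auxin, read 6.76 units without iron, against 4.19 units with iron. This is a log2 difference of 0.69, or 1.61-fold. Probe sets as bright as ILR3 behaved much the same: 488 of the 500 nearest in brightness were higher without iron and 311 of them (62.2%) were at least 1.5-fold higher. Adjusted for brightness, ILR3 was at 0.07 on the log2 scale (robust SD 0.23), above 284 of its 500 neighbours and below 216.

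bHLH104, which pairs with ILR3, read 6.82 units without iron and 4.91 units with iron, a log2 difference of 0.47 (1.39-fold). Its 500 neighbours had a median difference of 0.65, and bHLH104 was above 124 of them, at -0.15 after the adjustment (robust SD 0.23). bHLH115 had the smallest difference of the 3 IVc factors, with 4.07 units without iron against 3.35 units with iron, a log2 difference of 0.28 (1.21-fold). It was above only 40 of its 500 neighbours, of which 489 were higher without iron, and stood at -0.32 after the adjustment (robust SD 0.24). These 3 factors were bright enough to lie on the flat part of the curve, where its height was 0.62, 0.62 and 0.60 at ILR3, bHLH104 and bHLH115. Their order, ILR3 over bHLH104 over bHLH115, was therefore the same on both scales. The log2 difference of ILR3 exceeded that of bHLH104 by 0.22 and that of bHLH115 by 0.41 as deposited, and by 0.22 and 0.39 adjusted for brightness. The arrays hold no replicate of a condition, but some genes have more than 1 probe set. Over the 14 such genes past the filter, the pooled SD between probe sets of a gene was 0.33 for the difference as deposited and 0.15 for the adjusted difference. This SD holds no spread between arrays or plants, and it is the spread of single values, not of a step between genes. Setting the step from ILR3 to bHLH104 beside it therefore decides nothing. Neighbouring factors in the order cannot be separated without replicates.

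bHLH34 completes the IVc subgroup and is a close relative of bHLH104. It read 1.35 units without iron and 1.26 units with iron, a log2 difference of 0.11, or -0.19 adjusted for brightness (robust SD 0.19). Of the 4 IVc factors on the array, ILR3 alone was thus above the curve, by less than its robust SD.

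**Figure D2:**
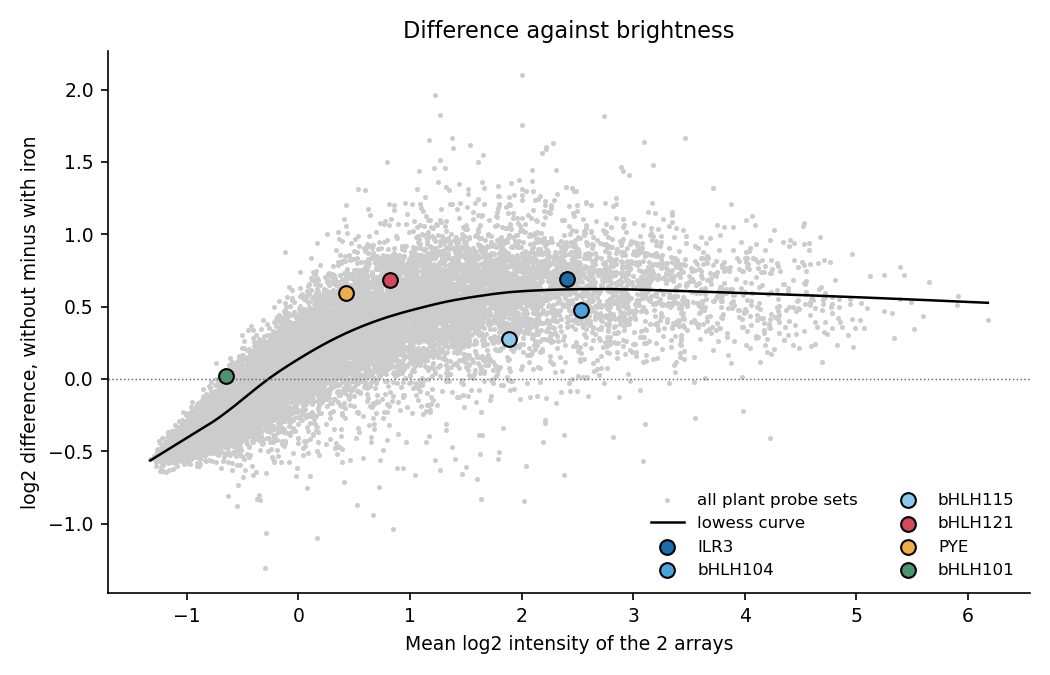
The log2 difference, without minus with iron, against the mean log2 intensity of the 2 arrays for all plant probe sets (grey), with the lowess curve (black) and the 6 factors (coloured). bHLH121, PYE and bHLH101 lie above the curve by 0.25, 0.28 and 0.25, ILR3 lies close to it, and bHLH104 and bHLH115 lie below it.

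Both IVb factors were above most probe sets of like brightness. bHLH121 read 2.24 units without iron, against 1.40 units with iron, a log2 difference of 0.69 (1.61-fold). As deposited, the differences of bHLH121 and ILR3 were within 0.01 of each other. Their neighbours differed: 121 of the 500 probe sets nearest to bHLH121 (24.2%) were at least 1.5-fold higher, against 62.2% for ILR3. Adjusted for brightness, bHLH121 exceeded ILR3 by 0.18, less than the robust SD of either. These 2 factors cannot be separated without replicates. bHLH121 was above 431 of its 500 neighbours, at 0.25 adjusted for brightness (robust SD 0.21).

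PYE read 1.65 units without iron and 1.09 units with iron, a log2 difference of 0.59. Its fold of 1.51 lies just past the 1.5-fold threshold, and 43 of its 500 neighbours in brightness (8.6%) passed that threshold. PYE was above 460 of the 500, at 0.28 adjusted for brightness (robust SD 0.20). The adjusted differences of PYE and bHLH121 were 0.024 apart, and PYE had the higher one. As deposited, PYE was lower than bHLH121, with a PYE minus bHLH121 value of -0.095. On the adjusted scale PYE exceeded ILR3 by 0.20, whereas as deposited it was 0.10 below ILR3.

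bHLH101, the one subgroup Ib factor among the 6, is known as a strongly iron-responsive gene in whole roots. It read 0.642 units without iron and 0.634 units with iron, a log2 difference of 0.02 (1.01-fold). Both values are below the expression filter and near the level of probe sets with no plant target. The bHLH101 value without iron was above all 27 Bacillus controls of that array, which ranged from 0.389 to 0.635. With iron it was above 21 of the 27, which ranged from 0.531 to 0.727. Only 1 of the 500 probe sets nearest to bHLH101 in brightness was higher without iron, and their median log2 difference was -0.23. bHLH101 was above 499 of these 500, at 0.25 adjusted for brightness, with a robust SD of 0.09. When neighbours were instead matched on the value with iron alone, a setting chosen after seeing the data, bHLH101 was above 498 of 500 and at 0.34. The adjusted value of bHLH101 thus comes from an intensity that was nearly equal on both arrays, while equally dim probe sets read lower without iron. At this signal over background, a change in its transcript could not be told from background.

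**Figure D3:**
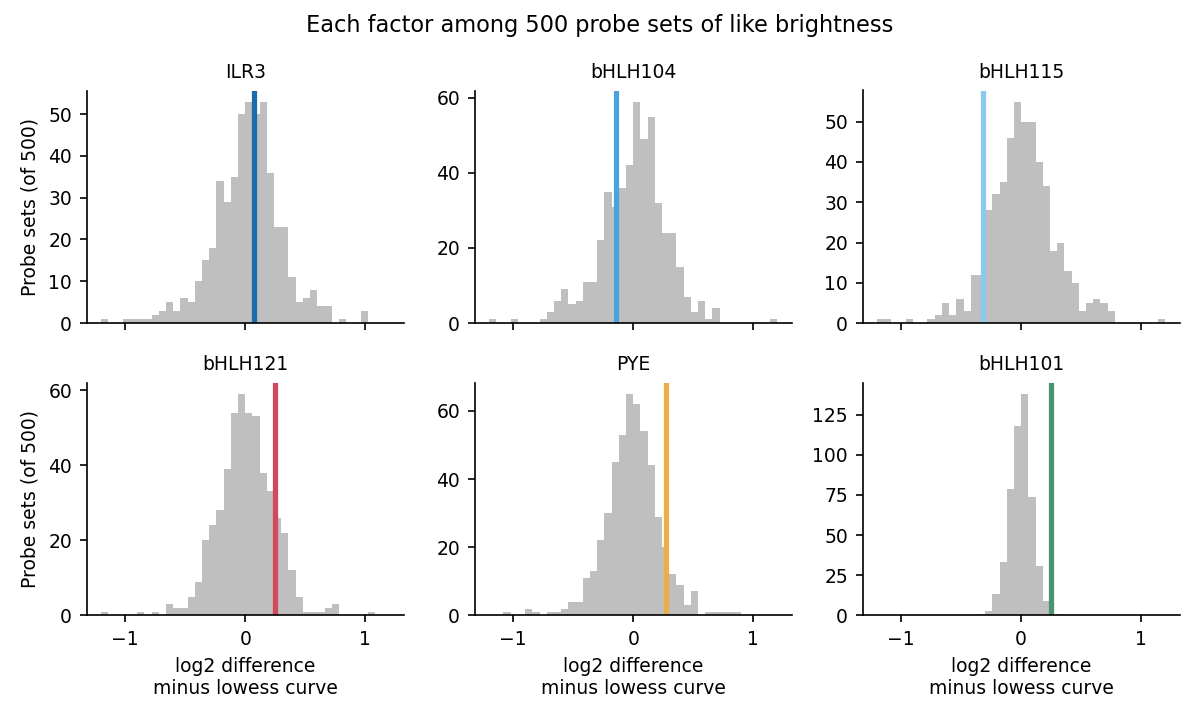
For each factor, the distribution of the log2 difference minus the lowess curve among the 500 plant probe sets nearest in brightness (grey, values beyond 1.2 drawn in the end bins), with the factor as a coloured line. ILR3 lies in the middle of its neighbours, bHLH115 in the lower tail with 460 of 500 above it, and PYE and bHLH101 in the upper tail with 40 and 1 above them.

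A q value for the difference between the conditions was also deposited for each probe set, from a test that the sources used here do not describe. Of the 6 factors, 4 had q under 0.05 in the authors' deposited table, beside 61.3% of all plant probe sets and 44.5% of those past the filter. For bHLH121 the q of the authors' deposited table was 5.43e-11, which ranks 4 among 22746 plant probe sets, whose lowest q was 9.23e-15. This place in the ranking does not follow from the size of its difference, which 7.94% of plant probe sets matched or exceeded. Among the 66 other single-gene probe sets within 0.1 of bHLH121 over both log2 values, none had a q as low as that of bHLH121. Their q in the authors' deposited table ran from 2.1e-05 to 0.267, with a median of 0.00576. Among the 500 neighbours of bHLH121 in brightness, 1 had a lower q in the authors' deposited table, 4.43e-12. ILR3, with nearly the same difference, reached q 0.00109 in the authors' deposited table, at rank 4776. Of the 500 neighbours of ILR3 in brightness, 97 had a lower q there, and 350 had q under 0.05. PYE had 0.00161 in the authors' deposited table, and 30 of its 500 neighbours in brightness had a lower q.

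bHLH104 and bHLH115 stood in the opposite order by q and by size. In the authors' deposited table bHLH115, with the smaller difference between these arrays, had a q of 0.0435, and bHLH104, with the larger one, had 0.125. Of the 500 neighbours of bHLH104 in brightness, 428 had a lower q than bHLH104 in the authors' deposited table. Of the 500 neighbours of bHLH115, 335 had a lower q than bHLH115 there, and 343 had q under 0.05. bHLH101 stood at q 0.222 in the authors' deposited table, higher than that of 499 of its 500 neighbours, 427 of which had q under 0.05. Which arrays entered the q values is not stated there, and they may include this pair.

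**Figure D4:**
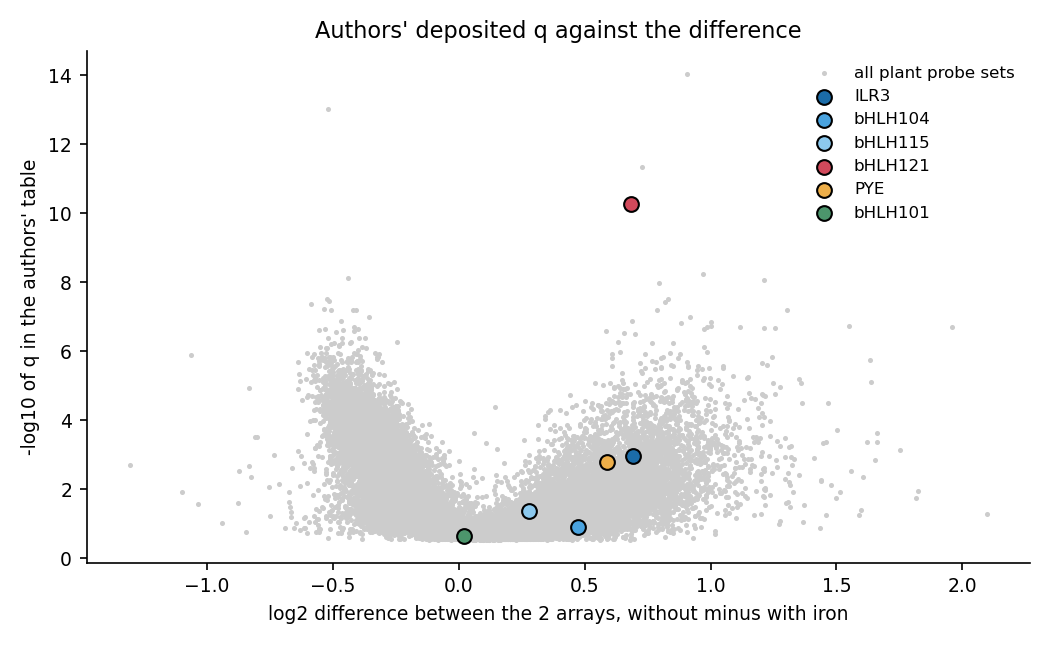
Negative log10 of q in the authors' deposited table against the log2 difference between the 2 arrays, without minus with iron, for all plant probe sets (grey) and the 6 factors (coloured). bHLH121, with q 5.43e-11, lies far above ILR3 at nearly the same difference, and the other 5 factors lie within the grey cloud.

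The direction of the factors was then compared across scalings of the pair: the deposited values, the median difference of expressed probe sets set to 0, quantile normalization, the lowess curve subtracted, and a fitted offset and scale factor removed. ILR3, bHLH121 and PYE were above 0 under all of these. Under the 4 rescalings, ILR3 ran from 0.033 to 0.32, bHLH121 from 0.24 to 0.32 and PYE from 0.22 to 0.29. PYE and bHLH121 kept a similar size under the 4 rescalings, while ILR3 was within 0.08 of 0 under 3 of the 4. Those 3 all remove the trend with brightness, and setting the median to 0 subtracts 0.37 from every probe set. The curve height was 0.32 at PYE and 0.43 at bHLH121, near that constant, and 0.62 at ILR3. The rescalings are therefore not independent checks of PYE and bHLH121. bHLH104 was above 0 as deposited and at 0.11 with the median set to 0, and below 0 under the other 3, down to -0.18. Among these scalings bHLH115 was above 0 only as deposited, and it ran from -0.33 to -0.088 under the rescalings. bHLH101 ran from 0.17 to 0.27 under 3 rescalings and was at -0.35 with the median set to 0, which moves dim and bright probe sets alike. Under none of the 4 rescalings did a factor reach a 1.5-fold difference.

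**Figure D5:**
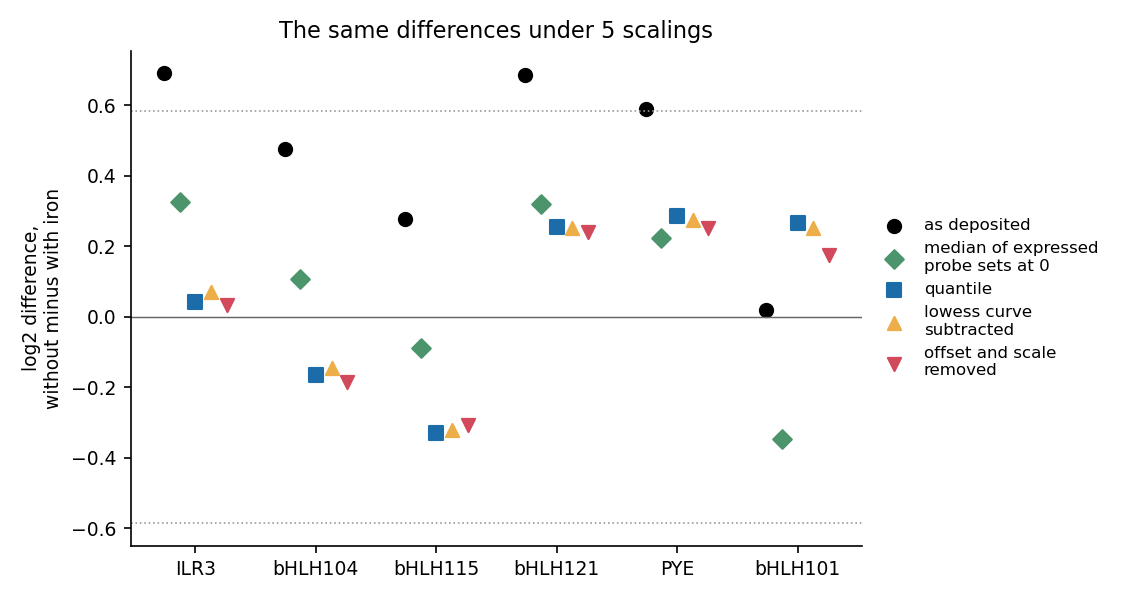
The log2 difference of each factor, without minus with iron, as deposited (circles) and under 4 rescalings of the pair, with dotted lines at 1.5-fold higher and lower. bHLH121 and PYE stay between 0.22 and 0.32 under the 4 rescalings, and bHLH115 is below 0 under all 4.

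Other genes of the pathway gave few values. Of 22 further regulators of the iron response in the list used here, 9 had a single-gene probe set and 4 passed the filter, of which 1 was at least 1.5-fold higher without iron and 0 at least 1.5-fold lower (24.1% and 0.295% of plant probe sets past the filter). That gene was EIN3, the ethylene-pathway regulator known to stabilise FIT, with 5.74 units without iron and 2.81 units with iron. Its log2 difference was 1.03, or 0.43 adjusted for brightness (robust SD 0.24), above each of the 6 bHLH factors on both scales.

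BTSL2, an E3 ligase that targets FIT, read 1.15 units without iron against 0.863 units with iron. Its log2 difference was 0.42, or 0.28 adjusted for brightness (robust SD 0.15), close to the adjusted values of PYE and bHLH121. For BTSL2 the authors' deposited table gave q 0.255. bHLH20, of the IVa subgroup that promotes loss of FIT protein, read 1.08 units without iron and 0.918 units with iron, a log2 difference of 0.23, or 0.10 adjusted for brightness. Its IVa relatives bHLH18, bHLH19 and bHLH25 were below the filter, as were IMA1, which encodes an iron-responsive peptide, and both probe sets of BTSL1. The BTSL1 probe sets disagreed in sign, with -0.32 at one and 0.07 at the other, or -0.10 and 0.12 adjusted for brightness.

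Among 16 genes of iron acquisition and movement, which include genes that FIT and the Ib factors switch on, 3 had a single-gene probe set and 2 passed the filter. COSY, an enzyme of coumarin synthesis, read 9.25 units without iron and 5.87 units with iron, a log2 difference of 0.65, or 0.035 adjusted for brightness. F6'H1, which makes the precursor of the coumarin scopoletin, read 0.873 units without iron and 0.794 units with iron, 0.14 higher on both scales (robust SD 0.14). F6'H1 passed the filter only through the array without iron. None of the 8 listed genes known as targets of PYE or ILR3, among them NAS4, FRO3, ZIF1 and the ferritins, and none of the 6 auxin-conjugate hydrolases had a single-gene probe set, so these were not analysed here. Of 23 markers of root cell types, 6 had a single-gene probe set. LBD16, a lateral root regulator listed for the pericycle, read 2.26 units without iron and 1.60 units with iron (log2 difference 0.50, or 0.044 adjusted for brightness). It was the only one of the 6 listed pericycle and stele markers with a single-gene probe set, so the sorted cell type could not be checked further. Of the markers of other cell types, the root hair expansins EXPA7 and EXPA18 were lower without iron, at -0.38 and -0.31. Adjusted for brightness they were at -0.47 and -0.36 (robust SD 0.14 and 0.16). They read 0.820 and 0.802 units without iron and 1.06 and 0.993 units with iron. Both thus passed the filter only through the array with iron. Their q in the authors' deposited table was 0.143 and 0.157. SGN3, an endodermal receptor kinase, was at -0.021, or -0.37 adjusted (robust SD 0.19). OPS, a phloem protein gene, was at 0.17, or 0.19 adjusted (robust SD 0.13). It read 0.866 units without iron and 0.768 units with iron, so OPS passed the filter only through the array without iron. The cortex marker CO2 was below the filter on both arrays, at -0.36, or -0.033 adjusted. The part of other cells in the values of the bHLH factors was not tested. In sorted cells pooled in this way, fewer cells of a type and less RNA per cell cannot be told apart.

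For each factor past the filter, the single-gene probe sets whose pair of log2 values lay nearest to it were also listed. XERICO (AT2G04240), a small zinc finger protein gene of abscisic acid metabolism, and AT3G60860 were nearest to ILR3, at distances of 0.0075 and 0.023. AT3G55430 and AT1G54320 were nearest to bHLH104, and AT1G69800 and AT3G14410 to bHLH115. AT5G03880 and AT3G29185 were nearest to bHLH121, and AT5G11460 and GYRB3 (AT5G04110), named for a DNA gyrase subunit, to PYE. Within a distance of 0.1 there were 27 single-gene probe sets around ILR3, 21 around bHLH104, 16 around bHLH115, 66 around bHLH121 and 73 around PYE. These counts also depend on how many probe sets lie at each brightness, so they do not rank the factors by how common their pattern was. With 1 array per condition, a match to a factor is a match of 2 values only.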

How the data were processed

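The values deposited by the authors are array intensities, 1 per probe set and sample, from biotin-labelled cRNA amplified by Affymetrix's protocol from total RNA of sorted cells, per the labels' protocols. The sources used here do not state background correction, summarisation or scaling. All values are above 0 and right-skewed, so the intensities were taken as linear, and the scaling behind the deposited intensities stays unknown. Per the labels, 3 biological replicates were made per line, and 1 array per condition was used here. A deposited table of the authors holds q-values for the condition difference, by a test not described.

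Of 22801 probe sets, 55 controls were set aside. Gene names came from the platform's dated probe table, updated by gene ID through RefSeq's table of TAIR10.1, and 13513 plant probe sets had 1 gene. The difference is log2 without iron minus log2 with iron, with no pseudocount. The curve was a lowess fit (statsmodels 0.14.6, fraction 0.2) over all plant probe sets. The filter was the median of all plant values. The robust SD is a scaled median absolute deviation over 500 neighbours in brightness. The fitted offset was 0.341 units and the scale factor 0.583. Named were the 6 factors, listed pathway genes past the filter and the 2 nearest probe sets of each factor past it, others for counts of 5 or fewer and markers. The members and lists were chosen with earlier results of these data known. The procedure was tested on simulated data, with differences larger than those of the factors put in among the brighter probe sets. Smaller differences and dim probe sets were not covered by it.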

Additional observations from a re-analysis of the deposited data

How the results depend on the processing

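Each log2 difference was recomputed under 5 alternatives, and a move is called one when it exceeds the spread of the 500 neighbours in brightness (robust SD). Quantile normalization gave 0.041 for ILR3, -0.16 for bHLH104, -0.33 for bHLH115, 0.26 for bHLH121, 0.29 for PYE and 0.27 for bHLH101 (median 0.15). Setting the median difference past the filter to 0 gave 0.32, 0.11, -0.088, 0.32, 0.22 and -0.35 in the same order (median 0.17). Subtracting the lowess curve gave 0.072, -0.15, -0.32, 0.25, 0.28 and 0.25 (median 0.16). Removing the offset and scale factor gave 0.033, -0.18, -0.31, 0.24, 0.25 and 0.17 (median 0.10). A pseudocount of 1 gave 0.44 for bHLH121 and 0.34 for PYE, moves that follow from its size beside dim values. The 3 factors at least 1.5-fold higher became 0 under each of these 5 alternatives and at a 2-fold threshold, and 4 at 1.3-fold. The listed regulator at least 1.5-fold higher became 0 with quantile normalization, the lowess curve, or the offset and scale factor. The 2858 plant probe sets at least 1.5-fold higher and 35 lower became 131 and 189 with quantile normalization, 341 and 339 with the median set to 0, 129 and 176 with the lowess curve, 95 and 134 with the offset and scale factor, and 1227 and 4 with the pseudocount. With no filter 53 were lower, and with a filter at the 75th percentile 16. The brightness-adjusted differences moved by less than the robust SD with a lowess fraction of 0.5 or the median of 500 neighbours, and with neighbours matched on the value with iron alone (chosen after seeing the data) bHLH101 moved, to 0.34. Leaving out probe sets ending in _s_at or _x_at kept all 6 factors and their values. No paired analysis was possible because 1 array per condition gives a single pair, with no spread between pairs. Leaving out an array was not possible with 1 per condition. Probe sets near the Bacillus controls carry little signal over background.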
